A study of Bos taurus with 24 samples.

Results

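The Toll-like receptor 4 (TLR4) signalling adaptors, kinases and regulators comprised 36 genes that were chosen by name for their known place in the pathway, and each of the 36 was found on exactly 1 of the 59846 rows of the count tables. Earlier results of these data were known when the genes were chosen. Counts of members set beside shares of all rows therefore only describe this list. They were measured by messenger RNA sequencing in fibroblasts, cells that make the connective tissue of the dermis, cultured from 4 Holstein (dairy) and 4 Angus (beef) heifers of about the same age. Each culture was sampled at 0 h, before lipopolysaccharide (LPS, from the cell wall of Gram-negative bacteria), and at 2 h and 8 h after 100 ng/ml of LPS, which gave 6 groups of 4 samples. The cells came from shoulder skin biopsies and had been frozen at the third passage, and lysates of duplicate wells were pooled, so a sample stands for 1 animal at 1 hour. No culture without LPS was sampled at 2 h or 8 h among the samples used here, so that an effect of LPS and one of time in culture cannot be told apart. Animals are numbered 1 to 4 within a breed, as in the labels, and values are listed in that order.

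When LPS binds TLR4 at the cell surface, the adaptors TIRAP and MYD88 gather the IRAK kinases, which pass the signal through the ubiquitin ligase TRAF6 to the TAK1 complex. TAK1 in turn switches on the IκB kinase (IKK) complex, which frees the transcription factor NF-κB, and the p38 and JNK kinases. From endosomes, the adaptors TICAM2 (TRAM) and TICAM1 (TRIF) signal through TRAF3, TBK1 and IKBKE to interferon genes, and a set of inhibitors, some of them made in response to the signal itself, dampens both routes. Fibroblasts carry this pathway and answer LPS with chemokines and cytokines.

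A level is a count scaled to the size of its library (CPM, with library sizes adjusted for composition by TMM), and differences are given as log2 fold changes with their standard error (SE). Counts cover whole gene spans of different length, so levels were compared between samples and not between genes. A member was called when its false discovery rate (FDR, from edgeR's likelihood-ratio test with Benjamini-Hochberg adjustment over all rows tested) was under 0.05. Total counts were 51014538 to 104406293 per sample, and 3 counts stood for 0.029 to 0.059 CPM. Of the 36 members, 35 passed the filter on low values in each of the 12 comparisons, and SIGIRR, a receptor-like protein that inhibits the pathway, passed in none, with 0.132 to 1.44 CPM over the 24 samples. In 4 libraries (at 0 h those of Holstein animals 2 and 4 and of Angus animal 4, and at 2 h that of Angus animal 3) the collagen gene COL1A1 had 66.2 to 67.1 covered bases for each count, while the other 20 had 111.8 to 119, and how reads were counted there was not tested. Calls that changed without these 4 libraries are named beside the results. The 10 fibroblast markers together reached 37870 to 88420 CPM in the Angus groups and 61740 to 124700 CPM in the Holstein groups. COL1A1 is one of these markers, at 5427 to 49170 CPM, so the difference in the 4 libraries enters the sums. The highest sums were in Angus at 2 h and in Holstein at 0 h, groups that hold such libraries, and the part of COL1A1 in them was not tested. The 5 endothelial markers summed to 2.03 to 5.22 CPM. The 7 leukocyte markers summed to 1.89 to 5.49 CPM, with MS4A1 at 3 counts or fewer in all 24 samples, and in Holstein they went without overlap from 1.89 to 3.37 CPM at 0 h to 4.23 to 5.49 CPM at 2 h. The 5 melanocyte markers were at 10.25 to 11.37 CPM in Angus at 0 h, 6.13 to 7.85 at 2 h and 9.34 to 12.23 at 8 h, while Holstein samples had 5.84 to 7.92, 5.63 to 6.33 and 6.51 to 8.43 CPM. The 4 pericyte and smooth muscle markers were at 254.3 to 444.8 CPM at 2 h against 169 to 314.3 CPM at 0 h. The part of these markers in the changes after LPS and in the differences between breeds was not tested. Keratinocyte markers summed to 1.31 to 1.85 CPM in the Angus samples, and the Holstein samples held 1.68 to 14.9 CPM, with KRT1 at 0 in all 24 samples, and the part of these differences in the results between breeds was not tested. In such bulk samples, fewer cells of a type and less RNA per cell cannot be told apart.

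At 2 h after LPS, with both breeds together, 11 members rose and 4 fell. These were 15 of 35 members tested, while 22.0% of all 20157 rows tested were called (10.8% higher, 11.2% lower). The largest increases were those of MAP3K8, TNIP1, TICAM1 and MAP2K3, 2 kinases, an inhibitor and an adaptor, and these were the 4 members that also changed by 2-fold or more (2.82% of all rows passed that stricter limit). The median change of the 35 members was 0.07 on the log2 scale against -0.004 over all rows. With the animal as a block, which uses the fact that each culture was sampled at every hour, 24 members were called (15 higher, 9 lower), while 47.5% of all rows were. A total of 17 members moved the same way in all 8 animals (12 up, 5 down), against 36.1% of all rows.

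At 8 h, 7 members were above 0 h and none was below it at this threshold, against 12.8% of all rows called (6.55% higher, 6.25% lower). They were TICAM1, TRAF3, TAB2, RIPK2, TNIP1, MAP2K3 and UBE2N, and TNIP1 alone among them reached 2-fold (1.42% of all rows did). The block raised the count to 16 (12 higher, 4 lower), with 40.7% of all rows called. From 2 h to 8 h, 4 members rose and 8 fell, against 23.8% of all rows called (12.2% higher, 11.6% lower), and with the block 10 rose and 12 fell, against 48.4%. The 2 h and 8 h comparisons share the 0 h samples, and the comparison of 8 h with 2 h shares samples with both, so these counts are not independent of each other.

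**Figure D1:**
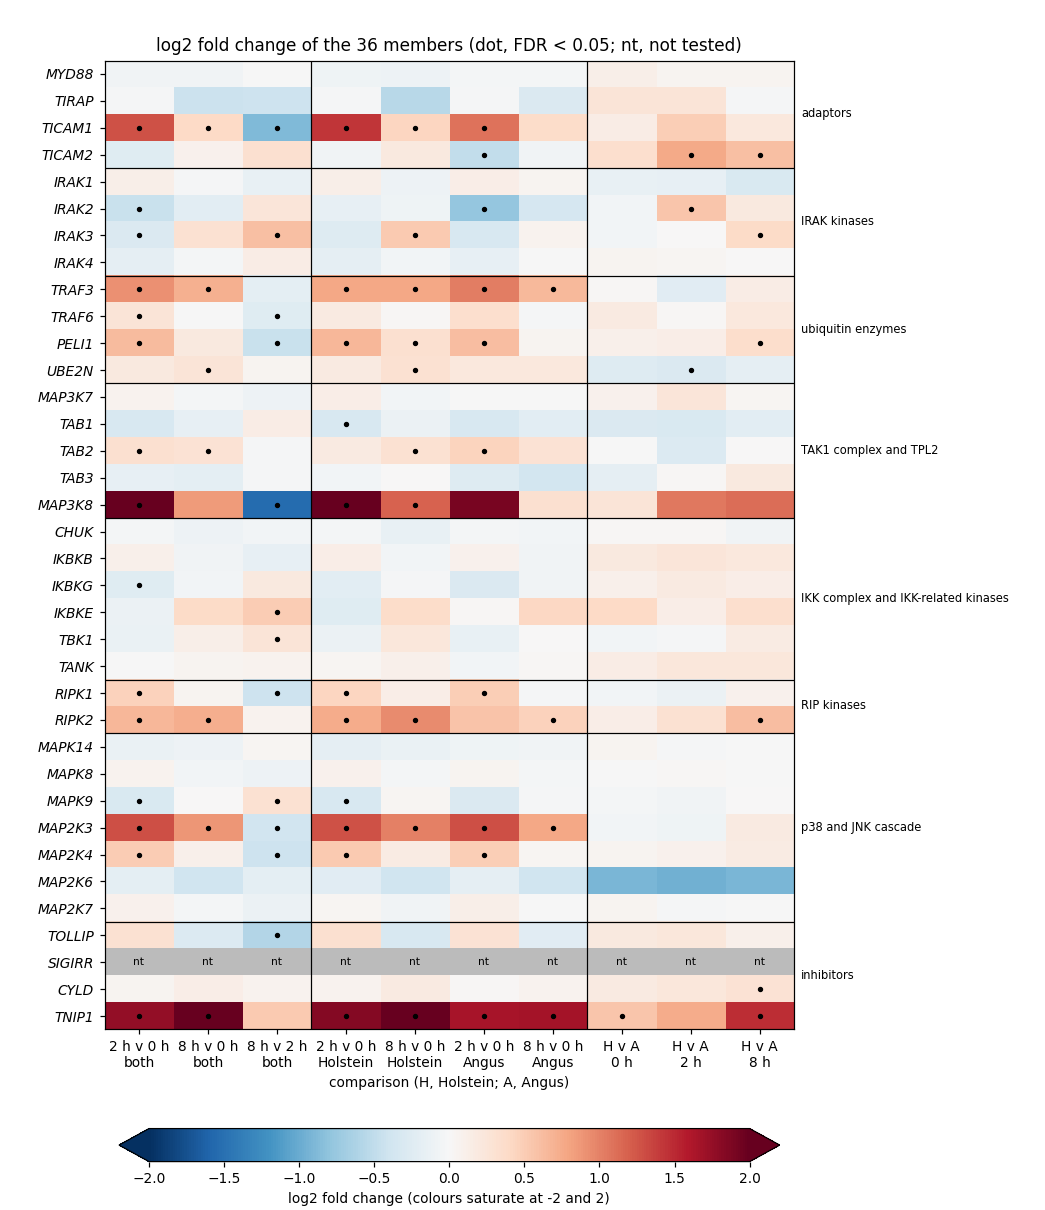
Colours give the log2 fold change of each member (rows, grouped by role) in 10 comparisons (columns): LPS hours with both breeds together, LPS hours within each breed, and Holstein against Angus (H v A) at each hour. Black dots mark FDR under 0.05 and grey cells (nt) mark SIGIRR, which was not tested; the deepest red at 2 h is MAP3K8 and at 8 h TNIP1, and most rows of the IKK group are pale.

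The 4 adaptors differed in their response. TICAM1 (TRIF; chromosome 7, 20547955 to 20550264 on the bovine build UMD v3.1), the adaptor of the endosomal route, rose in every animal by 2 h. In the Holstein cultures TICAM1 was at 9.03, 7.17, 7.95 and 8.61 CPM at 0 h, 19.1, 26.6, 17.7 and 25.2 at 2 h and 11.2, 11, 10.9 and 10.9 at 8 h. In the Angus cultures it was at 7.28, 6.53, 7.56 and 8.26 CPM at 0 h, 15.6, 13, 20.7 and 13.5 at 2 h and 10.7, 8.44, 10.3 and 8.67 at 8 h. All 8 values at 2 h lay above all 8 at 0 h, and 3 of the 4 Angus cultures stood below every Holstein culture at 2 h, with Angus animal 3 inside the Holstein range. The log2 fold change was 1.28 (SE 0.15, FDR = 1.65e-14) at 2 h and 0.39 (SE 0.10, FDR = 0.00148) at 8 h, and the level fell from 2 h to 8 h by 0.88 on the log2 scale (SE 0.15, FDR = 2.84e-07).

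TICAM2 (TRAM; chromosome 10, 4374428 to 4391820), which links TLR4 to TICAM1, differed between the breeds after LPS. TICAM2 in Holstein cells stood at 12.5, 10.5, 9.21 and 11.4 CPM before LPS, 11.3, 9.93, 8.66 and 11.9 at 2 h and 13.2, 12.6, 11.2 and 12.8 at 8 h. Angus cells had 8.87, 8.54, 9.55 and 7.42 CPM of it before LPS, 6.04, 5.68, 7.46 and 5.39 at 2 h and 8.1, 7.83, 9.79 and 7.22 at 8 h. Every Holstein value lay above every Angus value at 2 h and at 8 h, whereas at 0 h Holstein animal 3 was below Angus animal 3. In Angus, TICAM2 fell by 2 h by 0.49 on the log2 scale (SE 0.18, FDR = 0.0428), a call that, among the fits without 1 animal, was kept only without Angus animal 3. In Holstein the change was -0.07 (SE 0.15, FDR = 0.891). With both breeds together it was -0.24 (FDR = 0.433, and 0.00413 with the block), with 7 of 8 animals lower. The remaining adaptors were not called at any hour without the block. MYD88, the adaptor of most Toll-like receptors, ranged from 19.7 to 26 CPM over all 24 samples, and its change at 2 h was -0.06 on the log2 scale (95% interval -0.22 to 0.09). TIRAP, which brings MYD88 to the membrane, was at 0.849 to 2.68 CPM and changed at 8 h by -0.44 (FDR = 0.131, and 0.00148 with the block), with 7 of 8 animals lower.

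No IRAK kinase rose by 2 h without the block, and IRAK2 and IRAK3 fell. IRAK2 (chromosome 22, 16694670 to 16750676) is a kinase that sustains the signal, and its fall was called in Angus. The 4 Holstein cultures had 9.28, 8.59, 8.01 and 7.71 CPM of IRAK2 at 0 h, 6.7, 8.61, 6.88 and 7.92 at 2 h and 7.75, 8.01, 8.39 and 7.55 at 8 h. The 4 Angus cultures had 8.41, 9.11, 9.21 and 8.07 CPM at 0 h, 4.83, 5.11, 5.96 and 4.56 at 2 h and 6.01, 7.46, 7.4 and 6.84 at 8 h. All 4 Angus values at 2 h were below every other IRAK2 value in the study, and in Holstein animals 2 and 4 the level at 2 h was slightly above that at 0 h. The change at 2 h was -0.77 (SE 0.16, FDR = 5.85e-05) in Angus and -0.16 (SE 0.14, FDR = 0.536) in Holstein. With both breeds together it was -0.44 (SE 0.14, FDR = 0.00896), and at 8 h -0.21 (FDR = 0.118, and 0.0135 with the block).

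IRAK3 (IRAK-M; chromosome 5, 47796250 to 47839608), a family member that restrains the other IRAK kinases, went down by 2 h and then up. In the Holstein cultures IRAK3 was at 7.84, 5.86, 6.92 and 7.89 CPM at 0 h, 6.92, 5.82, 5.54 and 5.66 at 2 h and 10.6, 10.8, 8.39 and 10.9 at 8 h. In the Angus cultures it was at 8.66, 7.47, 6.63 and 6.82 CPM at 0 h, 5.85, 6.21, 6.59 and 5.13 at 2 h and 8.49, 7.5, 8.23 and 6.99 at 8 h. In every animal the level at 2 h was below 0 h and the level at 8 h above 2 h, and 3 of the 4 Holstein cultures stood above all Angus cultures at 8 h. The change was -0.29 (SE 0.11, FDR = 0.0329) at 2 h, where the call was lost in 5 of 8 fits that left out 1 animal (each of Angus animals 1, 2 and 4 and Holstein animals 3 and 4). From 2 h to 8 h it was 0.60 (SE 0.12, FDR = 1.35e-05). Against 0 h, the level at 8 h was higher in Holstein, by 0.52 (SE 0.15, FDR = 0.00774), a call lost without Holstein animal 1, 2 or 4, and with an FDR of 0.109 without the 4 libraries that differed in COL1A1. IRAK4, the first kinase of the chain, was at 41.4 to 54.4 CPM and lower at 2 h in all 8 animals, with a change of -0.17 on the log2 scale (FDR = 0.0758, and 0.000248 with the block), and it passed without Angus animal 4 and, with an FDR of 0.024, without the 4 libraries that differed in COL1A1. IRAK1, its partner, was at 34.5 to 57.9 CPM, with a change at 2 h of 0.12 (FDR = 0.5, and 0.0213 with the block).

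Of the 4 ubiquitin enzymes, TRAF3, TRAF6 and PELI1 rose by 2 h and none fell. TRAF3 (chromosome 21, 69228047 to 69254558), the ligase of the interferon route, rose in every culture and was still raised at 8 h. TRAF3 in Holstein cells stood at 8.19, 8.18, 6.86 and 8.48 CPM before LPS, 12.8, 15.9, 11.3 and 14.7 at 2 h and 13.1, 15.5, 11 and 14.3 at 8 h. Angus cells had 8.25, 7.68, 6.95 and 8.35 CPM of it before LPS, 17, 12.9, 17 and 16.8 at 2 h and 12.6, 12.2, 12.3 and 11.9 at 8 h. The values at 2 h and those at 8 h all lay above every value at 0 h, and at 2 h Angus animal 2 was apart from the other Angus animals, which were close together. The change was 0.91 (SE 0.11, FDR = 5.1e-15) at 2 h and 0.71 (SE 0.09, FDR = 4.09e-12) at 8 h, and between the hours it was -0.20 (FDR = 0.207, and 0.0469 with the block).

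PELI1 (chromosome 11, 62471605 to 62528075), a ligase that acts on the IRAK and RIP kinases, peaked at 2 h. The 4 Holstein cultures had 31.1, 30.4, 32.5 and 27.5 CPM of PELI1 at 0 h, 49, 57.7, 43 and 43 at 2 h and 40.7, 38.5, 37.4 and 34.5 at 8 h. The 4 Angus cultures had 28.2, 29.5, 32.3 and 24 CPM at 0 h, 43.1, 41, 56.1 and 34.8 at 2 h and 28.4, 28.9, 35.2 and 26.7 at 8 h. The lowest culture at 2 h (Angus animal 4) was above the highest at 0 h, and the highest Angus value at 2 h was again that of animal 3. The change was 0.64 (SE 0.11, FDR = 1.47e-07) at 2 h, and from 2 h to 8 h the level fell by 0.44 on the log2 scale (SE 0.12, FDR = 0.00306). At 8 h it was 0.31 above 0 h in Holstein (FDR = 0.0083, and 0.234 without the 4 libraries that differed in COL1A1, and lost without Holstein animal 1 or 2) and 0.06 in Angus (FDR = 0.931). TRAF6, the ligase between IRAK and TAK1, changed by 0.25 (SE 0.08, FDR = 0.0166) at 2 h, in the same direction in all 8 animals, and fell back by 0.25 from 2 h to 8 h (FDR = 0.0121), a call lost without Angus animal 2 or 3. Without the 4 libraries that differed in COL1A1 its FDR at 2 h was 0.114. UBE2N (Ubc13), the enzyme that supplies TRAF6 with ubiquitin, was higher in all 8 animals at both hours, with 0.20 at 2 h (FDR = 0.111, and 5.65e-06 with the block) and 0.25 (SE 0.08, FDR = 0.0206) at 8 h. The FDR at 8 h was 0.0887 without the 4 libraries that differed in COL1A1, and the call was lost when Angus animal 3, Holstein animal 1 or Holstein animal 4 was left out.

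In the TAK1 complex and its neighbour TPL2, a large change was seen in 1 gene. MAP3K8 (TPL2; chromosome 13, 35600313 to 35626617), the kinase through which the IKK complex reaches the ERK pathway, showed the largest fold change of all members at 2 h. In the Holstein cultures MAP3K8 was at 2.56, 2.81, 2.25 and 1.92 CPM at 0 h, 14, 18.8, 11.3 and 18.2 at 2 h and 4.37, 8.17, 4.08 and 4.99 at 8 h. In the Angus cultures it was at 1.3, 2.55, 2.95 and 1.19 CPM at 0 h, 2.69, 6.27, 19.1 and 1.76 at 2 h and 1.25, 2.94, 4.9 and 0.886 at 8 h. All 4 Holstein cultures rose several-fold, while the Angus cultures spread widely, from animal 4, with the smallest rise, to animal 3, which had the highest value of all at 2 h. The change with both breeds was 2.39 (SE 0.41, FDR = 6.32e-07) at 2 h. It was 2.70 (SE 0.20, FDR = 6.57e-34) in Holstein and 1.90 (SE 0.68, FDR = 0.0513) in Angus, where the FDR was 0.000108 with the block and 0.5 without the 4 libraries that differed in COL1A1, among them that of animal 3 at 2 h. The Angus call was gained when animal 4 was left out. All 8 animals were lower at 8 h than at 2 h, with a change of -1.54 (SE 0.49, FDR = 0.0116). At 8 h the level was still above 0 h in Holstein, by 1.18 (SE 0.26, FDR = 0.00013), and in Angus the difference was 0.32 (SE 0.55, FDR = 0.894), with animals 1 and 4 below their level at 0 h.

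TAB2, an adaptor of TAK1, rose modestly, by 0.32 (SE 0.08, FDR = 0.00139) at 2 h and 0.29 (SE 0.07, FDR = 0.000674) at 8 h, and was higher in all 8 animals at both hours. Its group means at 0 h, 2 h and 8 h were 42.9 ± 1.78, 49 ± 1.08 and 53 ± 4.59 CPM for the Holstein animals, whereas the Angus animals had 43.2 ± 3.43, 58.9 ± 6.17 and 52.7 ± 2.69 CPM (SD, n = 4). TAB1, the other activating subunit, was lower at 2 h in all 8 animals, with a change of -0.32 on the log2 scale (SE 0.13, FDR = 0.0562, and 1.14e-08 with the block). It was also called in Holstein at 2 h, with -0.32 (SE 0.11, FDR = 0.0303), and that call was lost whichever Holstein animal was left out. With both breeds it passed when Angus animal 4 was left out. The kinase TAK1 itself (MAP3K7) was at 68.2 to 93 CPM and its change at 2 h was 0.07 (95% interval -0.09 to 0.23). With the block MAP3K7 was called in 1 comparison, higher in Holstein at 2 h. TAB3 was low, at 0.797 to 1.77 CPM, and was not called in any comparison, with or without the block.

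Of the 6 members of the IKK group, 1 was called at 2 h and 0 at 8 h against 0 h, and 2 from 2 h to 8 h, while 22.0%, 12.8% and 23.8% of all rows were. The 3 subunits of the core complex were CHUK (IKKα), at 41.7 to 54.7 CPM, IKBKB (IKKβ), at 17 to 29.7 CPM, and the scaffold IKBKG (NEMO), at 15.2 to 23.4 CPM. CHUK changed by -0.04 at 2 h (95% interval -0.19 to 0.11) and IKBKB by 0.11 (-0.11 to 0.33, FDR = 0.602, and 0.0358 with the block). With the block CHUK was called in 1 of the comparisons. IKBKG was lower at 2 h in all 8 animals, with a change of -0.24 (SE 0.09, FDR = 0.0276), but the call was lost in 5 of 8 fits without 1 animal (Angus animal 2 or 3, or Holstein animal 1, 2 or 3), and the FDR was 0.264 without the 4 libraries that differed in COL1A1.

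The IKK-related kinases of the interferon route rose from 2 h to 8 h. IKBKE (IKKε) rose in all 8 animals over that interval, by 0.51 (SE 0.17, FDR = 0.0125), and TBK1 in all 8, by 0.26 (SE 0.08, FDR = 0.0128). The call of IKBKE was lost without Holstein animal 4, and that of TBK1 without Holstein animal 2 or 4. Holstein means of IKBKE were 8.69 ± 0.843, 7.39 ± 0.933 and 11.2 ± 1.49 CPM at 0 h, 2 h and 8 h, and Angus means 6.6 ± 1.26, 6.74 ± 1.96 and 8.85 ± 2.62 CPM (SD, n = 4). Against 0 h, IKBKE was 0.38 higher at 8 h, in all 8 animals (FDR = 0.106, and 3.04e-08 with the block). The scaffold TANK, which holds both kinases, was at 21 to 31.2 CPM and was not called after LPS (at 2 h -0.01, 95% interval -0.19 to 0.18).

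Both RIP kinases rose by 2 h, but with different courses. RIPK1 (chromosome 23, 50420980 to 50453797), which relays the TICAM1 signal to NF-κB, was up at 2 h and back near its starting level at 8 h. RIPK1 in Holstein cells stood at 24, 22.6, 23.1 and 22.6 CPM before LPS, 31.9, 33.8, 30.2 and 29.5 at 2 h and 23.3, 26.6, 25.7 and 25 at 8 h. Angus cells had 25.1, 22.4, 24.2 and 24.3 CPM of it before LPS, 35.6, 32.5, 35.9 and 31.8 at 2 h and 24.8, 23.1, 24.7 and 22.4 at 8 h. The groups at 0 h and 2 h did not overlap in either breed, and the breeds overlapped at every hour. The change was 0.47 (SE 0.07, FDR = 6.72e-10) at 2 h and -0.41 from 2 h to 8 h (SE 0.07, FDR = 2.13e-07), and at 8 h the level differed from 0 h by 0.05 (95% interval -0.08 to 0.18).

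RIPK2 (chromosome 14, 76230688 to 76269287), the kinase of the NOD receptors for bacterial cell wall fragments, was raised at both hours. The 4 Holstein cultures had 31.2, 31.3, 31.6 and 29.9 CPM of RIPK2 at 0 h, 48.6, 62.3, 44.2 and 52.6 at 2 h and 54, 68, 59.1 and 57.5 at 8 h. The 4 Angus cultures had 29.4, 29.6, 28.9 and 24.8 CPM at 0 h, 36.7, 38.3, 64.1 and 28.9 at 2 h and 38.7, 37.6, 47 and 32.6 at 8 h. In Holstein, all 4 cultures were higher at 8 h than at 2 h, and in Angus animal 3 stood far above the other 3 at 2 h and was also the highest at 8 h. The change was 0.66 (SE 0.15, FDR = 7.37e-05) at 2 h and 0.73 (SE 0.14, FDR = 6.83e-06) at 8 h. Within the breeds it was 0.95 (SE 0.10, FDR = 8.25e-20) in Holstein and 0.47 (SE 0.14, FDR = 0.032) in Angus at 8 h, the latter lost when Angus animal 1, 2 or 3 was left out.

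Of the 7 kinases of the p38 and JNK cascade, 2 upstream kinases rose and 1 JNK fell. MAP2K3 (chromosome 19, 35859039 to 35876875), which phosphorylates p38, had the smallest FDR of all members at 2 h with both breeds. In the Holstein cultures MAP2K3 was at 62.2, 51.3, 49.4 and 63.9 CPM at 0 h, 136, 148, 119 and 147 at 2 h and 120.1, 115, 92.7 and 128 at 8 h. In the Angus cultures it was at 60.1, 57.9, 52.1 and 65.7 CPM at 0 h, 150.1, 134, 160.2 and 135 at 2 h and 111, 97.3, 101 and 94.2 at 8 h. It rose steeply in every culture by 2 h, and the breeds overlapped at 0 h, 2 h and 8 h. The values at 8 h were below those at 2 h in each animal but above every value at 0 h. The change was 1.28 (SE 0.09, FDR = 2.4e-44) at 2 h and 0.89 (SE 0.09, FDR = 6.88e-19) at 8 h, with 1.27 (SE 0.12, FDR = 1.78e-22) in Holstein and 1.29 (SE 0.12, FDR = 8.49e-22) in Angus at 2 h.

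MAP2K4 (chromosome 19, 31284737 to 31363098), a kinase of JNK and p38 whose row also holds the microRNA gene MIR744, rose by 2 h and fell back by 8 h. MAP2K4 in Holstein cells stood at 24.6, 24.7, 23 and 21.8 CPM before LPS, 35.8, 34.5, 32.6 and 33.5 at 2 h and 25.5, 27.4, 25.5 and 26.5 at 8 h. Angus cells had 22.1, 25.6, 22 and 21.2 CPM of it before LPS, 31.9, 30.8, 33.9 and 31.5 at 2 h and 23.1, 24, 24.4 and 22.6 at 8 h. All values at 2 h were above all values at 0 h and at 8 h, in both breeds. The change was 0.51 (SE 0.07, FDR = 3.31e-11) at 2 h and -0.41 (SE 0.07, FDR = 1.7e-07) from 2 h to 8 h, and at 8 h the difference from 0 h was 0.10 (95% interval -0.04 to 0.24). MAPK9 (JNK2) was lower at 2 h in all 8 animals, with a change of -0.30 (SE 0.08, FDR = 0.00283), and rose again in all 8 by 8 h, by 0.31 (SE 0.08, FDR = 0.000409). Its group means were 15.6 ± 1.57, 12.6 ± 0.95 and 15.9 ± 0.509 CPM at 0 h, 2 h and 8 h in Holstein and 16.1 ± 1.31, 13.2 ± 0.971 and 15.9 ± 1.08 CPM in Angus (SD, n = 4).

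MAPK14 (p38α), at 42.6 to 60.9 CPM, and MAPK8 (JNK1), at 33.7 to 42.6 CPM, were not called in any comparison without the block. With it, MAPK14 passed at 2 h (-0.14 on the log2 scale, FDR = 0.00519 against 0.227 without). MAP2K7, an upstream kinase of JNK, was at 9.82 to 14.1 CPM, and its row overlaps LOC787301, which took 0.317 times as many counts. MAP2K6, the second kinase of p38, was low and uneven. In the Holstein cultures it was at 0.12, 1.83, 0.196 and 1.76 CPM at 0 h and in the Angus cultures at 2.48, 1.7, 1.77 and 1.45, so Holstein animals 1 and 3 were nearly without it and animals 2 and 4 were in the Angus range. At 2 h the same pair was low, but at 8 h Holstein animal 1 was at 1.17 CPM and animal 3 at 0.131. MAP2K6 was not called between breeds at any hour with all animals. Without the 4 libraries that differed in COL1A1, which leaves Holstein animals 1 and 3 at 0 h, it was called at 0 h (Holstein minus Angus -3.60, FDR = 6.25e-14, against -0.92 and 0.449).

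Among the inhibitors, TNIP1 stood out. TNIP1 (ABIN1; chromosome 7, 64295656 to 64339418) binds ubiquitin chains and, with the ubiquitin-editing enzyme TNFAIP3, curbs NF-κB. The 4 Holstein cultures had 48.1, 39.6, 38.1 and 44.9 CPM of TNIP1 at 0 h, 119.9, 199.9, 104 and 186 at 2 h and 247, 298, 186 and 292 at 8 h. The 4 Angus cultures had 23.9, 27.9, 36.9 and 27.6 CPM at 0 h, 72.5, 63.4, 184 and 44.8 at 2 h and 94.8, 74.8, 146 and 51.9 at 8 h. Holstein cultures went on rising from 2 h to 8 h in every animal, whereas Angus animal 3 was lower at 8 h than at 2 h and the other 3 Angus animals rose from a lower level. The change was 1.76 (SE 0.28, FDR = 3.92e-08) at 2 h and 2.27 (SE 0.31, FDR = 9.36e-10) at 8 h, in all 8 animals. At 8 h it was 2.58 (SE 0.16, FDR = 2.84e-49) in Holstein, a 6.00-fold increase, and 1.66 (SE 0.30, FDR = 1.58e-05) in Angus, a 3.16-fold increase.

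TOLLIP, which binds and holds back IRAK1, fell from 2 h to 8 h in all 8 animals, with a change of -0.58 (SE 0.12, FDR = 1.01e-05). At 2 h it was above 0 h in 7 of 8 animals (0.31, FDR = 0.0749, and 1.16e-06 with the block), and at 8 h below it in 7 of 8 (-0.28, FDR = 0.0712, and 0.0022 with the block), where it passed without Angus animal 2. Without the 4 libraries that differed in COL1A1 the rise at 2 h passed (FDR = 0.0294). CYLD, a deubiquitinase that removes the chains built by TRAF6, was at 22.1 to 37.9 CPM. Its change was 0.06 at 2 h and 0.13 at 8 h (95% interval at 8 h -0.06 to 0.31). With the block CYLD was called higher at 8 h, with both breeds together and in Holstein.

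**Figure D2:**
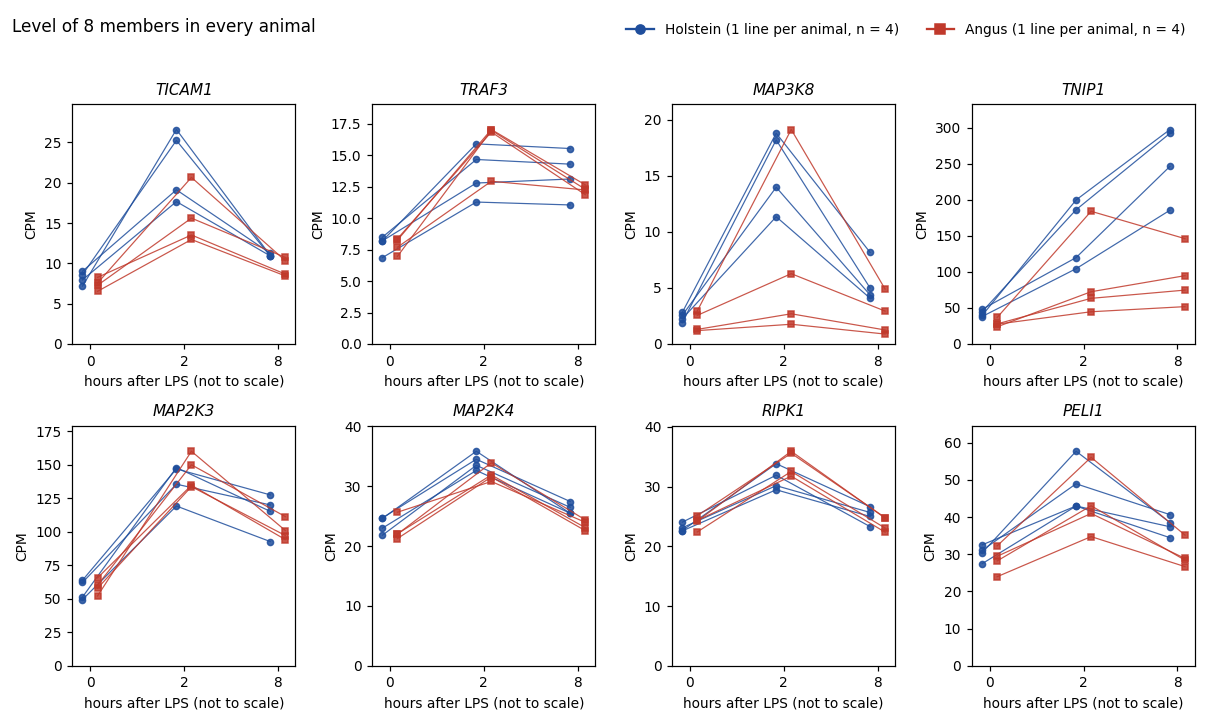
CPM (vertical axes, from 0) of 8 members at 0 h, 2 h and 8 h after LPS, with 1 line per animal (Holstein, blue circles; Angus, red squares; n = 4 each). MAP2K3, MAP2K4 and RIPK1 have the same shape in all 8 animals, TNIP1 is highest at 8 h in each Holstein animal, and in MAP3K8 and TNIP1 the line of Angus animal 3 peaks at 2 h (19.1 and 184 CPM) among the Holstein lines.

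By course over the hours, 7 of the 35 members rose by 2 h and fell from 2 h to 8 h: TICAM1, TRAF6, MAP3K8, RIPK1, PELI1, MAP2K3 and MAP2K4, a pattern met by 5.84% of all 19866 rows tested in the 3 hour comparisons. A total of 6 members (TICAM1, TRAF3, TAB2, RIPK2, TNIP1 and MAP2K3) were above 0 h at both hours, against 2.9% of all rows. TICAM1 and MAP2K3 belong to both groups. IRAK3 and MAPK9 fell by 2 h and rose by 8 h, a course met by 7.05% of all rows. A further 16 members passed in none of the 3 comparisons without the block, against 64.6% of all rows. Several of these 16 were called with the block: TICAM2, IRAK1, IRAK4, TAB1, IKBKB and MAPK14 at 2 h, and TIRAP and CYLD at 8 h. The courses were not taken with the block. The same 2 h samples enter both steps of these courses.

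Within the breeds, 11 members were called in Holstein at 2 h (9 higher, 2 lower) and 10 in Angus (8 higher, 2 lower). Of all rows, 17.2% were called in Holstein (9.0% higher, 8.24% lower) and 13.8% in Angus (6.88% higher, 6.87% lower). TICAM1, TRAF3, RIPK1, PELI1, TNIP1, MAP2K3 and MAP2K4 rose in both breeds, which is 7 of 35 members. Of all rows, 9.69% were called in both in the same direction. These 7 members were 63.6% of the Holstein and 70.0% of the Angus calls. Over all rows, 1904 were called in both, beside 3505 called in Holstein and 2799 in Angus. At 8 h, 10 members were called in Holstein and 4 in Angus, all higher, against 14.7% (8.19% higher, 6.54% lower) and 3.9% (1.94% higher, 1.95% lower) of all rows. The 4 Angus genes (TRAF3, RIPK2, TNIP1 and MAP2K3) were all among the Holstein calls, which is 4 of 35 members against 3.05% of all rows. Over all rows, 607 were called in both in the same direction, beside 3017 called in Holstein and 804 in Angus. Among the members, the Holstein calls beyond the 4 shared genes were TICAM1, IRAK3, TAB2, MAP3K8, PELI1 and UBE2N. Without the 2 Holstein libraries at 0 h among the 4 that differed in COL1A1, 5 members were called in Holstein at 8 h (TRAF3, MAP3K8, RIPK2, TNIP1 and MAP2K3), and 6 without Holstein animal 2. These fits hold fewer samples, and the shares of all rows called in them were not taken. Leaving out the 4 libraries that differed in COL1A1 also lost RIPK2 in Angus at 8 h (FDR = 0.112), TAB2 in Angus at 2 h (FDR = 0.0573) and TAB1 and MAPK9 in Holstein at 2 h (FDR = 0.212 and 0.355). These 2 Holstein calls, both lower, were lost as well whichever animal was left out. With the block the counts were 20 and 20 at 2 h (35.8% of all rows in each breed) and 18 in Holstein against 9 in Angus at 8 h (35.2% and 20.7% of all rows). The signs of the changes were the same in both breeds for 32 of 35 members at 2 h and for 29 at 8 h, against 78.6% and 75.5% of all rows.

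**Figure D3:**
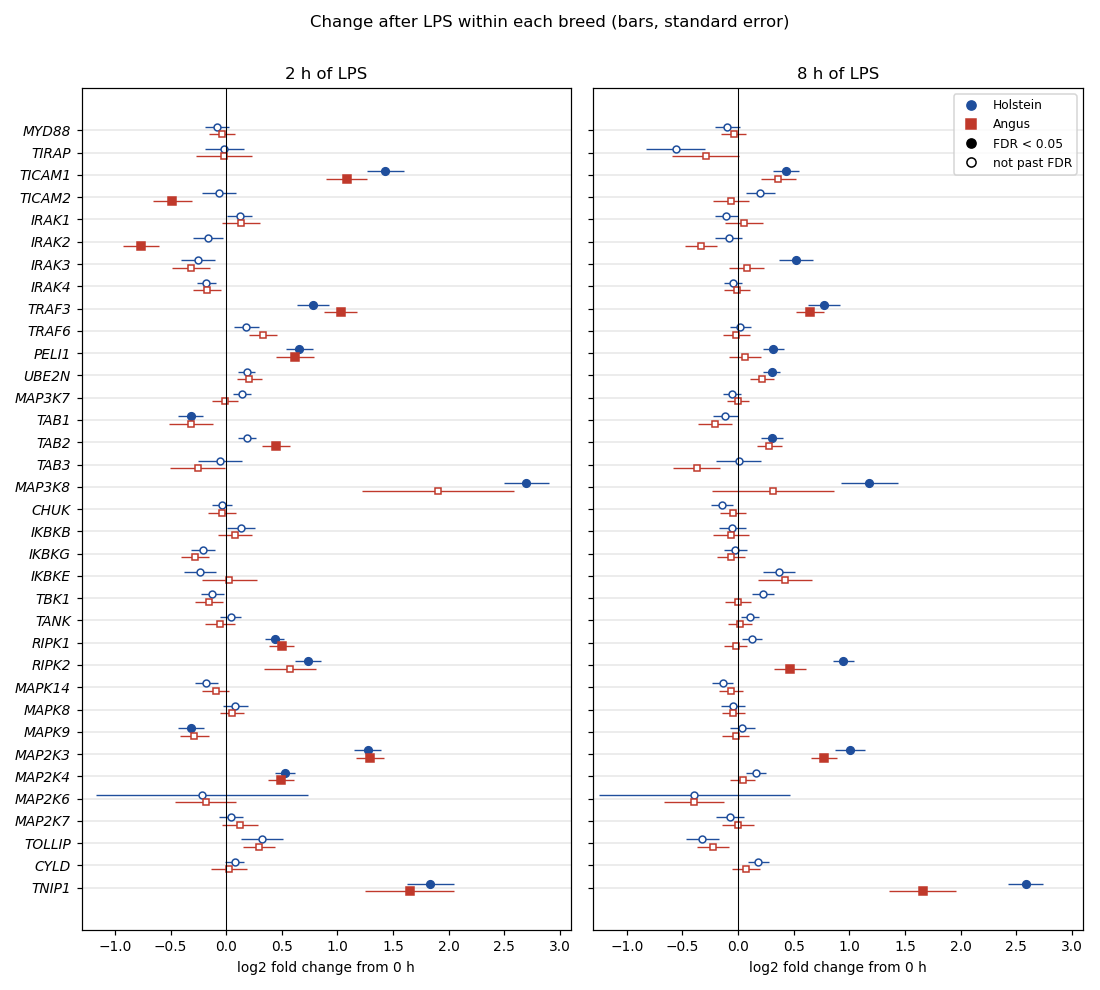
Log2 fold change from 0 h (horizontal axis) of the 35 members tested, at 2 h (left) and 8 h (right) of LPS, in Holstein (blue circles) and Angus (red squares), with bars for the standard error and filled symbols for FDR under 0.05. The symbols of the breeds lie close together for MAP2K3 (1.27 and 1.29 at 2 h) and apart for IRAK2 at 2 h (-0.16 and -0.77) and TNIP1 at 8 h (2.58 and 1.66).

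Between breeds at the same hour, 1, 3 and 6 of 35 members were called at 0 h, 2 h and 8 h. At 0 h TNIP1 was called, higher in Holstein by 0.55 (SE 0.15, FDR = 0.00597), which is 1 of 35 members against 13.8% of all rows (6.83% higher, 6.98% lower in Holstein), and every Holstein value was above every Angus value. Without the 4 libraries that differed in COL1A1, 3 of which are 0 h libraries, its FDR was 0.281. When Angus animal 3 was left out, UBE2N and IKBKE passed as well, and 21.6% of all rows were called. At 2 h, TICAM2 and IRAK2 were higher in Holstein and UBE2N was higher in Angus, 3 members against 20.1% of all rows (10.4% higher, 9.71% lower in Holstein). The differences (Holstein minus Angus) were 0.76 (SE 0.17, FDR = 0.000378) for TICAM2, 0.55 (SE 0.16, FDR = 0.008) for IRAK2 and -0.28 (SE 0.10, FDR = 0.025) for UBE2N. UBE2N was at 55, 55.6, 55.3 and 56.8 CPM in the Holstein and 65.8, 67.8, 63.9 and 72.3 CPM in the Angus cultures at 2 h, with no overlap, but its call was kept in 1 of 8 fits that left out 1 animal, the fit without Angus animal 3. The call of IRAK2 was lost without Holstein animal 2.

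The counts at 2 h turned on Angus animal 3, whose library at that hour is also one of the 4 that differed in COL1A1. Without it 11 members were called, 9 higher in Holstein and 2 lower, while 28.0% of all rows were. The 8 members gained were TICAM1, TNIP1, MAP3K7, MAP3K8, RIPK2, CYLD and TANK, higher in Holstein, and TAB1, lower. MAP3K8 then differed by 2.12 and TNIP1 by 1.34 on the log2 scale, against 1.06 (FDR = 0.245) and 0.74 (FDR = 0.218) with all 8 animals. Covered bases per count in the 4 libraries and in the other 20 were 88.4 to 96.8 against 83.9 to 96 for MAP3K8, 59.7 to 60.9 against 59.1 to 64 for TNIP1 and 66.7 to 70.6 against 66.8 to 72.7 for RIPK2. Between breeds at 2 h, leaving out Angus animal 3 and leaving out the 4 libraries are the same fit. A part of the animal and one of its library therefore cannot be told apart there. Of the 36 members, SIGIRR included, 14, 21 and 16 had their highest Angus level in animal 3 at 0 h, 2 h and 8 h. The share of all rows with their highest Angus level in that animal was not taken.

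At 8 h, 6 members were called, all higher in Holstein, against 16.5% of all rows (8.72% higher, 7.78% lower). TNIP1 differed most, by 1.48 (SE 0.30, FDR = 9.67e-05), with 186 to 298 CPM in Holstein and 51.9 to 146 CPM in Angus and no overlap. RIPK2 differed by 0.62 (SE 0.14, FDR = 0.00043) and TICAM2 by 0.60 (SE 0.14, FDR = 0.000868), also without overlap. These 3 calls were kept whichever animal was left out. PELI1 (0.35, FDR = 0.0306), CYLD (0.28, FDR = 0.0406) and IRAK3 (0.39, FDR = 0.0481) lay nearer the threshold. Of the 8 fits that left out 1 animal, PELI1 passed in the fit without Angus animal 3, CYLD in those without Angus animal 3 or Holstein animal 1, and IRAK3 in those without Angus animal 3 or Holstein animal 3. Without Angus animal 3, 10 members were called at 8 h (9 higher, 1 lower), against 25.0% of all rows. The breeds did not overlap in 10 members at 8 h, 9 of them higher in Holstein, against 20.4% of all rows, and in 5 members at 0 h and at 2 h, against 17.3% and 24.0%. The median difference of the 35 members at 8 h was 0.14, against 0.006 over all rows.

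**Figure D4:**
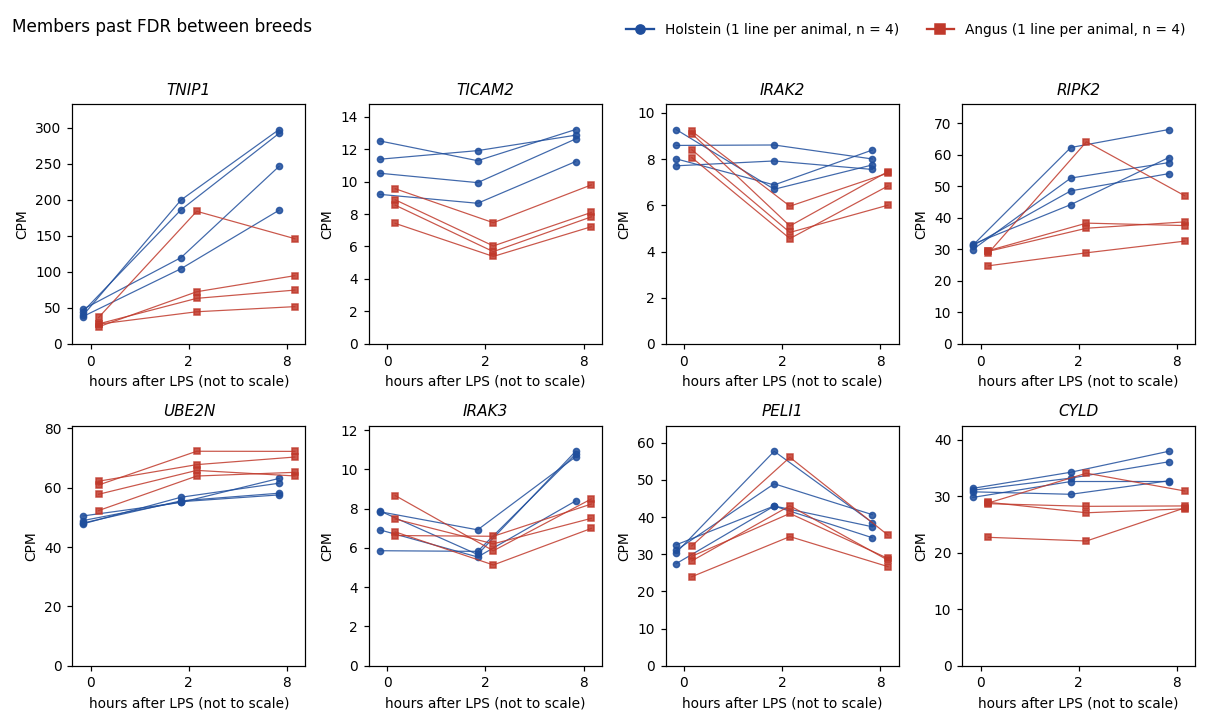
CPM (vertical axes, from 0) of the 8 members called between breeds at one or more hours, with 1 line per animal (Holstein, blue circles; Angus, red squares; n = 4 each). TICAM2 lines of the breeds are apart at 2 h and 8 h, the Angus lines of IRAK2 dip at 2 h, and in TNIP1 and RIPK2 the red line that joins the blue ones at 2 h is that of Angus animal 3.

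Whether the change after LPS itself differed between the breeds was tested as an interaction. Without the block no member was called at 2 h or at 8 h (edgeR, 35 tested), against 0.437% and 0.137% of all rows, and 2 members at 2 h (TICAM2 and IRAK2) and 3 at 8 h (IRAK3, RIPK2 and TNIP1) had an unadjusted p under 0.05. DESeq2 called 1 member at 2 h, IRAK2, and 0 at 8 h. Chance alone can bring some of 35 tests under an unadjusted p of 0.05. Shares of all rows were not taken for that limit or for DESeq2. Without Angus animal 3, TNIP1 was called at 8 h. With the animal as a block, 3 members were called at each hour, against 4.28% and 2.59% of all rows. By direction, 2.75% of all rows were greater and 1.53% smaller in Holstein at 2 h, and 2.02% and 0.574% at 8 h. At 2 h the change was greater (or the fall smaller) in Holstein for TICAM2 (difference 0.43, FDR = 0.0063), IRAK2 (0.61, FDR = 0.0019) and MAP3K8 (1.29, FDR = 0.0383). At 8 h it was greater in Holstein for MAP3K8 (0.99, FDR = 0.0241), RIPK2 (0.48, FDR = 0.00212) and TNIP1 (0.98, FDR = 0.00455). With the stricter quasi-likelihood F test and the block, TICAM2 and IRAK2 kept an FDR of 0.0329 and 0.0326 at 2 h, whereas MAP3K8 was at 0.166 at 2 h, and MAP3K8, RIPK2 and TNIP1 were at 0.138, 0.077 and 0.109 at 8 h. For MAP2K3 the difference in change at 2 h was -0.01 on the log2 scale (95% interval -0.34 to 0.32), and for MYD88 it was -0.04 (-0.32 to 0.24).

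Other genes of the pathway were followed as 6 lists, 74 genes in all, of which 71 were in the tables and 65 passed the filter at 2 h. At 2 h 17 of them rose and 3 fell, against 10.8% and 11.2% of all rows, and at 8 h 15 were above 0 h and 3 below, against 6.55% and 6.25%. The NF-κB subunits and inhibitors moved most: 9 of 10 tested rose by 2 h, led by NFKBIA (4.61), which holds NF-κB in the cytoplasm, NFKBIZ (3.55), its nuclear relative, and RELB (2.27), a subunit, all as log2 fold changes. At 8 h 7 were still raised. Of 12 deubiquitinases and other brakes, 3 rose and 1 fell at 2 h. TNFAIP3 (A20), the partner of TNIP1, rose by 5.45 on the log2 scale at 2 h and was 3.79 above 0 h at 8 h, and ZC3H12A (regnase-1), which degrades cytokine messages, rose by 2.67 at 2 h. Among 15 other ligases and TRAF proteins, 2 rose and 2 fell at 2 h, with BIRC3 (cIAP2), a ligase for RIP kinases, at 2.87 (FDR = 8.06e-16). Of 17 other MAP kinase cascade members, 2 rose and none fell at 2 h, with MAPKAPK2, a target of p38, at 0.55. In the interferon arm, 1 of 9 rose at 2 h, IRF5 (1.57), and 1 at 8 h, OPTN (0.57).

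In the receptor complex, 2 of 4 genes (TLR4 and LY96) passed the filter, and none was called against 0 h at either hour without the block. With the block, 1 was called lower at 8 h with both breeds and 2 in Holstein. Of all rows, 21.2% and 17.3% were called lower in these fits. LY96 also fell from 2 h to 8 h without the block (-0.30, FDR = 0.0181). The receptor TLR4 in Angus cells was at 0.443 to 2.72 CPM at 0 h, 0.364 to 1.32 at 2 h and 0.689 to 1.53 at 8 h. Holstein cells had 2.61 to 5.42 CPM of it at 0 h, 2.59 to 4.44 at 2 h and 1.93 to 4.8 at 8 h. TLR4 was called higher in Holstein at each hour, by 1.59 (SE 0.50, FDR = 0.0209) at 0 h, 2.01 (SE 0.41, FDR = 9.66e-05) at 2 h and 1.34 (SE 0.36, FDR = 0.00457) at 8 h, and its levels overlapped between breeds at 0 h and not at 2 h or 8 h. With the block, 24 of the 65 genes tested rose and 13 fell at 2 h, against 22.2% and 25.3% of all rows, and 23 were above and 15 below 0 h at 8 h, against 19.4% and 21.2%.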

How the data were processed

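RNA sequencing counts of 24 samples (4 Holstein and 4 Angus animals at 0 h, 2 h and 8 h) were used. The authors filtered reads on quality and length and aligned them to the bovine genome UMD v3.1 with NextGENe 2.3.4, and the submitters' processing notes also name CASAVA 1.7. The deposited read counts are raw whole numbers per gene span, introns included, or per interval without a symbol. The deposited mean coverage (signal) of each row was used only to check how reads were counted. There were 1.5 to 1.712 counts per matched read, and how counts came to exceed reads was not tested.

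Rows with at least 1 CPM in 50% or more of the samples compared were tested with edgeR 4.0.16 in R 4.3.3 (TMM scaling, generalized linear model, likelihood-ratio test, Benjamini-Hochberg), following the study, on the samples of each comparison, over all 59846 rows, of which 27550 carried a symbol. A call was an FDR under 0.05. The study's limit of 2-fold and mean CPM above 1 gave a second count. Intervals of 95% are the estimate with 1.96 standard errors either side. Alternatives were the quasi-likelihood F test, DESeq2 1.42.0, other scaling, no filter, rows with symbols only, each animal left out, 4 libraries left out, and the animal as a block. The fits were tested on simulated counts.

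Samples were paired by animal, as the labels give it. With group means removed, the 0 h and 2 h samples of an animal had a mean correlation of 0.649 across rows (lowest 0.534), against -0.215 between animals. Removing the group means ties the value between animals to that within animals, so it is no separate check of the pairing. All 36 pairs of replicates differed by more than sampling noise. The labels name no batch. Members and gene lists were chosen with earlier results of these data known. Every sample's value was given for members past FDR and 2-fold in any comparison and, up to 8 members, for those with the smallest FDR after LPS. For genes of the other lists, at most the 3 largest changes per list were named. TICAM2, IRAK2, IRAK3, RIPK2 and MAP2K6 were given in full after their values were seen. Intervals use the fitted standard errors, which include the spread between animals, and the floor of 3 counts covers counting error only.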

Additional observations from a re-analysis of the deposited data

Results flagged for a closer look

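TRAF3 in Angus animal 2 at 2 h was at 12.92 CPM, apart from the other 3 Angus animals at that hour, with a gap of 0.952 of the group's range. Chance alone marks about 1 group in 20, and 48 groups of 4 samples were examined.

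With the animal as a block, the change after LPS differed between the breeds in 6 instances, all larger (or less negative) in Holstein. At 2 h the difference in log2 change was 0.43 for TICAM2 (edgeR FDR = 0.0063), 0.61 for IRAK2 (FDR = 0.0019) and 1.29 for MAP3K8 (FDR = 0.0383). At 8 h it was 0.99 for MAP3K8 (FDR = 0.0241), 0.48 for RIPK2 (FDR = 0.00212) and 0.98 for TNIP1 (FDR = 0.00455). Of all rows, 4.28% and 2.59% were called with the block at 2 h and 8 h. By direction, 2.75% were greater and 1.53% smaller in Holstein at 2 h, and 2.02% and 0.574% at 8 h. The calls over all rows thus lean toward Holstein as well. Without the block none of the 6 was past the threshold. With the block and edgeR's quasi-likelihood F test, TICAM2 and IRAK2 stayed past it, while MAP3K8 was at an FDR of 0.166 at 2 h and MAP3K8, RIPK2 and TNIP1 were at 0.138, 0.077 and 0.109 at 8 h. No member moved in opposite directions in every animal of the 2 breeds.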

How the results depend on the processing

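Of 79 calls of members in the 12 comparisons, 1098 values were computed under alternatives, of which 989 stayed past the threshold in the same direction, 109 fell short of it and 0 turned. Leaving out the 4 libraries that differed in COL1A1 lost 13 calls and dropping the filter lost 15. The F test, DESeq2's size factors and rows with symbols only lost 2 calls each, and DESeq2's own test lost 0. The block lost 0 of the calls after LPS, and the comparisons between breeds at one hour have no fit with it. A total of 57 calls were kept whichever animal was left out. Fewer samples enter the fits without libraries, and the cause of the other losses was not tested.

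With the replicate block (animals paired by the labels), the counts were 24 at 2 h against 0 h, 16 at 8 h and 22 for 8 h against 2 h with both breeds, 20 and 18 in Holstein and 20 and 9 in Angus at 2 h and 8 h, and 3 for the interaction at each hour. With the block and the F test they were 24, 17, 22, 21, 19, 21 and 9, and 2 for the interaction at 2 h. With the study's limit they were 4, 1, 1, 4, 3, 4 and 1 for the hours and 0, 0 and 1 between breeds at 0 h, 2 h and 8 h. Of all rows, 2.82%, 1.42%, 2.76%, 3.14%, 2.51%, 2.98% and 0.863% passed that limit for the hours, in the same order. Between breeds 3.81%, 4.45% and 3.24% of all rows did. DESeq2 gave 2, 6 and 10 between breeds and 1 for the interaction at 2 h. Rows with symbols only gave 2 at 0 h, and no filter gave 3 at 8 h between breeds. Shares of all rows were not taken for the block with the F test, DESeq2, rows with symbols only or no filter. Without the 4 libraries, 5 were called in Holstein at 8 h, where the share of all rows was not taken. Between breeds at 2 h, 11 were called without them, against 28.0% of all rows. None of these libraries is an 8 h library, so the comparison between breeds at 8 h has no such value.

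With 1 animal left out, the counts ranged from 6 to 9 in Holstein at 8 h (lowest without Holstein animal 2), from 1 to 3, 1 to 11 and 3 to 10 between breeds at 0 h, 2 h and 8 h, each highest without Angus animal 3, and from 0 to 1 for the interaction at 8 h. At 8 h between breeds, 3 were called without Angus animal 1, 2 or 4 or Holstein animal 2 or 4, and at 2 h 1 without Holstein animal 2. The other counts moved by less than 1.5 times. Without Angus animal 3, 21.6%, 28.0% and 25.0% of all rows were called between breeds at 0 h, 2 h and 8 h. Shares of all rows were not taken for the other fits that left out 1 animal. SIGIRR did not pass the filter on low values, and MAP2K6, TAB3, TIRAP and, in Angus, MAP3K8 were under 1 CPM in some samples, where counts are least precise.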
